A study of Mus musculus with 42 samples.

Results

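The NR4A group of nuclear receptors has 3 members in the mouse, Nr4a1, which encodes Nur77, Nr4a2, which encodes Nurr1, and Nr4a3, which encodes Nor-1. They were picked by symbol, as 3 of 21818 protein-coding genes. Their occupancy by RNA polymerase II (Pol II) and their acetylation of histone H3 at lysine 27 (H3K27ac, found on active promoters and enhancers) were measured by chromatin immunoprecipitation and sequencing (ChIP-seq) in bone marrow-derived macrophages (BMDMs). The cells came from wild-type (WT) mice and from mice without functional Nur77 (KO), and had received 100 ng/ml lipopolysaccharide (LPS), a bacterial product that activates macrophages, for 0, 1 or 18 h. With 3 libraries per antibody in each of these 6 groups there were 36 in all, and 1 input library per group was made without antibody.

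Both genotypes were male C57Bl6/J mice aged 6 to 12 weeks, with WT littermates as the controls, and bone marrow was cultured for 7 days in medium conditioned by L929 fibroblasts, the source of the macrophage growth factor. The KO was made with floxed Nr4a1 and Cre under the CMV promoter, which acts throughout the body, so the bone marrow that gave rise to the cells also lacked Nur77. The genotype label of the KO libraries says only cre, whereas according to the methods Cre had been bred out of the KO mice, so an effect of Cre in a KO difference cannot be told apart from the loss of Nur77. Which exons the loxP sites flank, and whether the 3 libraries of a group came from separate animals, is not given in the sources used here, and p-values then measure only the spread between libraries.

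NR4A receptors are immediate-early genes: signals such as LPS, calcium or cAMP switch their transcription on within minutes, through CREB, MEF2, SRF and NF-kB at their promoters. Their ligand-binding pocket is filled by amino acid side chains, so that their activity follows mainly from how much protein is made. They bind a response element called the NBRE as single molecules, and in earlier studies of macrophages Nur77 and Nurr1 held back inflammatory genes driven by NF-kB. For Nur77 the study that made these data proposes instead a main action on AP-1 transcription factors and the genes they drive. The members share a nearly identical DNA-binding domain, and a loss of Nur77 can be studied for how the paralogs Nr4a2 and Nr4a3 respond.

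In the mm10 build Nr4a1 (ENSMUSG00000023034) lies at chr15:101254269-101274795 on the plus strand. Its gene record starts far upstream, and the principal transcript, with 7 exons, starts 12.6 kb inside it at base 101266846. Nr4a2 (ENSMUSG00000026826) lies at chr2:57106830-57124003 on the minus strand, with longer transcripts that start at base 57124003 and a principal transcript that starts 8.97 kb further in, at base 57115038. Nr4a3 (ENSMUSG00000028341) lies at chr4:48045153-48086447 on the plus strand and is the longest, at 41.3 kb. Distances in kb below are from the principal start, with negative values upstream.

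The promoters are shown because the core of the CREB site recurs in each, and the region 4.4 kb upstream of Nr4a1 because it carried the largest KO difference in H3K27ac at the locus. Promoters run from 250 bases before a start to 50 bases past it (RefSeq, GRCm38.p6, transcript strand), and the upstream stretch is the middle 300 bases of the Pol II region there (plus strand). The RefSeq start used for Nr4a3 lies downstream of its principal start at base 48045153, which falls inside the printed stretch. Capitals mark exact matches, on either strand, to the CRE core TGACG (printed as its reverse complement where it lies on the other strand), to the whole CRE TGACGTCA and to NF-kB by its name.
Nr4a1, chr15:101266596-101266895: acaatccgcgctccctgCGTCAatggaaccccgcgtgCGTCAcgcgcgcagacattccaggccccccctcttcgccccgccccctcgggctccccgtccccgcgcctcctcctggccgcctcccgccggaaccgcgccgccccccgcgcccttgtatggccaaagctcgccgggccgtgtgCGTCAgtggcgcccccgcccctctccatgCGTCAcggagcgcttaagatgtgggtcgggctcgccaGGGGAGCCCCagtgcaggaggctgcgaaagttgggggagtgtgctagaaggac
Nr4a1 upstream region, chr15:101262345-101262644: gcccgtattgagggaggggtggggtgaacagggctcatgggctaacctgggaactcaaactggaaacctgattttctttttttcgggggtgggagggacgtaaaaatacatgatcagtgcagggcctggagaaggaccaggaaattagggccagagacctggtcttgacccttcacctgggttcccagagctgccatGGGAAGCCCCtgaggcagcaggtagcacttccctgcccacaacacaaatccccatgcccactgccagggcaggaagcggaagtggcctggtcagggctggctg
Nr4a2, start of the longer transcripts, chr2:57123954-57124253: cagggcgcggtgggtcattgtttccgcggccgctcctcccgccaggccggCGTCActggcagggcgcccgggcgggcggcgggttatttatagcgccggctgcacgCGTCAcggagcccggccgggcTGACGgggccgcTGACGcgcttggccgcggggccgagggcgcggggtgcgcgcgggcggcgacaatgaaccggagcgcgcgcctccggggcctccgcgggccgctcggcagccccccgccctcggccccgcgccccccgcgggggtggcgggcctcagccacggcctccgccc
Nr4a2, start of the principal transcript, chr2:57114989-57115288: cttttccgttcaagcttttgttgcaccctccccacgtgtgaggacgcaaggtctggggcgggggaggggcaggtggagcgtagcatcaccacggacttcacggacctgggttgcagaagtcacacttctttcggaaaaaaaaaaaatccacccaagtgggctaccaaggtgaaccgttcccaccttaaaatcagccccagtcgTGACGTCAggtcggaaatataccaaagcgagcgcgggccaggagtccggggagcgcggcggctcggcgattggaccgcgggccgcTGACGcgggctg
Nr4a3, chr4:48045055-48045354: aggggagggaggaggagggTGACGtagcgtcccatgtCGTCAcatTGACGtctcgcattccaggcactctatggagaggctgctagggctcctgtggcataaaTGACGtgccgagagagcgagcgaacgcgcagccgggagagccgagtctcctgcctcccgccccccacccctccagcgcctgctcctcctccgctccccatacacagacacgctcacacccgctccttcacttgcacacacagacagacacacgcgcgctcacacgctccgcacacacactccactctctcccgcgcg
The CRE core was present 4 times in the Nr4a1 promoter, 4 times at the longer start of Nr4a2, 3 times at its principal start and 4 times at Nr4a3. Of 32851 promoters of the same length 20.8% held it at least once, 1.035% at least 3 times and 0.231% at least 4 times. The 3 matches at the principal start of Nr4a2 include both strands of 1 whole CRE, 47 bases before the start, and 1.79% of promoters held a whole CRE. The upstream region of Nr4a1 had no CRE core, and like the Nr4a1 promoter it held an NF-kB match that reads on both strands. That motif was in 8.46% of promoters and in 4.5% of the middle 300 bases of 70835 Pol II regions. None of these 5 stretches held the NBRE (1.51% of promoters), an AP-1 site (TGAGTCA or TGACTCA, 5.2%) or, by its name, a CArG box (1.63%), which says only that these letters are not in these windows.

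A value is a sum of normalized tags, the tags of the regions enriched in a library, scaled to 10000000 tags of that library. The Pol II value of a gene covers its record with 500 bp on each side, and the H3K27ac value 2500 bp on each side of the principal start. The tags of a region that lies partly outside a window were shared by length, as if spread evenly, so a gene value also depends on where each library's regions begin, break and end. A region that a library's search did not find counts as 0, which does not mean that no reads lay there. Pol II libraries held 21730524 to 36124602 tags with overlapping ranges in WT and KO. H3K27ac libraries held 13505272 to 31147064 tags in WT and 23562634 to 55367970 in KO, so H3K27ac depth differed with genotype, and its part in the H3K27ac results was not tested.

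Some H3K27ac libraries stood apart. KO 1 h library 1 correlated at 0.978 to 0.980 with the WT 1 h libraries and at 0.911 to 0.912 with KO 1 h libraries 2 and 3, across genes on the log2 scale. KO 18 h library 1 correlated at 0.914 to 0.915 with the other KO 18 h libraries, and at 0.905 with KO 1 h libraries 2 and 3. H3K27ac results are therefore also given without KO 1 h libraries 2 and 3 and KO 18 h library 1, which leaves the KO 1 h group 1 library whose spread is taken from the other groups.

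All 10 macrophage markers, among them Adgre1 and Cd68, carried Pol II in each group. Their summed value was 35039 to 36957 normalized tags in WT at 1 h and 25897 to 26649 in KO. At 18 h it was 45878 to 48644 in WT and 39241 to 42500 in KO, and at 0 h the ranges overlapped (20813 to 24799 and 23390 to 25322). Of the 10 markers 1 was higher and 4 were lower in KO at 1 h, when 45.7% of all genes were called (4589 higher and 904 lower), and 1 was higher and 7 lower at 18 h, when 21.0% were (967 and 1714, limma). Of the other cell lists, 2 of 3 T cell genes, 1 of 2 B cell genes and 2 of 4 dendritic cell genes tested were higher in KO at 1 h, numbers too small to set apart from that share of all genes, and the summed T cell value was 385 to 433 in WT and 447 to 482 in KO. The B cell sum was 41.4 to 53.0 in WT and 59.5 to 77.8 in KO at 1 h, and 106 to 121 and 80.1 to 82.8 at 18 h. At 18 h 1 T cell and 1 B cell gene were lower and 1 dendritic cell gene was higher. For H3K27ac the summed macrophage value overlapped at 0 and 1 h, and at 18 h it was 8781 to 9428 in WT and 5561 to 8501 in KO. Of the 10 genes 3 were called higher at 1 h (median over the list -0.29, all genes 0.05) and 1 lower at 18 h, beside 18.5% and 3.28% of all genes. The H3K27ac sum of the T cell genes was lower in KO without overlap at 0 h (119.6 to 134 in WT, 95.5 to 104 in KO) and 1 h (219 to 233 and 183 to 207), and that of the B cell genes at 0 h (270.2 to 294 and 175 to 251.1) and 18 h (325 to 369.8 and 159 to 249.5). The part of these shifts in the NR4A differences was not tested. Defining markers of other cells, Cd3e and Cd3g of T cells, Pax5 of B cells, Ly6g, Elane and Mpo of granulocytes, Siglech of dendritic cells, Col1a1 of fibroblasts and all 4 mast cell genes, were listed at 0 for Pol II in each group. Other genes of those lists were not at 0 (3 of 5 T cell genes, up to 482 normalized tags in all, 1 to 3 of 5 B cell genes, up to 161, 2 to 4 of 5 dendritic cell genes, up to 1379, and 1 of 5 fibroblast genes, up to 60.4, with 0 to 3 of 6 granulocyte genes, up to 30.2). For H3K27ac, Elane was above 0 in each group, with 31.5 to 39.4 in WT and 38.9 to 45.6 in KO at 0 h. The mast cell gene Cma1 had H3K27ac of 11.9 to 23.3 in WT and 10.6 to 13.9 in KO at 0 h.

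Nr4a1, the deleted gene, was examined first, as it checks the labels. At 0 h it carried Pol II values of 189, 188 and 208 normalized tags in the 3 WT libraries and 87.8, 76.1 and 70.2 in the 3 KO libraries. The genotypes did not overlap, and Pol II at Nr4a1 was lower in KO by 1.22 on the log2(normalized tags + 10) scale used throughout (SE 0.167, 95% interval -1.58 to -0.87, adjusted p = 0.000124 by limma). Of the alternatives tried, only a pseudocount of 1 in place of 10 ended the call (-1.32, adjusted p = 0.195). Genes with an adjusted p below 0.05 were called, which at 0 h held for 6.98% of the genes tested between KO and WT for Pol II. The signal in KO was well above 0, so the labels were checked by a partial loss, and fewer cells with Pol II on the gene cannot be told apart from less Pol II per cell.

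After 1 h of LPS the Pol II values of Nr4a1 were 25.5, 23 and 30.4 in WT and 33.5, 39.0 and 36.6 in KO. KO lay above WT without overlap, but the difference of 0.36 was not called (adjusted p = 0.0893, and 0.0377 without replicate 3), where 45.7% of genes were called and the median gene was itself 0.24 higher in KO. After 18 h WT had 7.46, 5.98 and 0 and all 3 KO libraries were listed at 0. What WT had left at 18 h lay wholly in the region around -4.4 kb, with none at the start or in the gene body. The 18 h difference of -0.49 (adjusted p = 0.0443, with 21.0% of genes called) rests on those small regions and, with KO at 0, on the pseudocount, and it was no longer called after centring each library on its median gene (-0.36, adjusted p = 0.145), after quantile normalization (-0.40, adjusted p = 0.0647), with a pseudocount of 50 (-0.12, adjusted p = 0.22) or with replicate number as a block (-0.49, adjusted p = 0.0568).

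H3K27ac at the Nr4a1 start did not pass the test between genotypes. At 0 h WT had 44.8, 31.5 and 33 normalized tags and KO 26.3, 23.2 and 17.9, which do not overlap, and the difference was -0.51 (95% interval -1.08 to 0.05, adjusted p = 0.551, with 0.721% of genes called). At 1 h WT had 51.1, 25 and 54.8 and KO 44.1, 38.4 and 40.7, and the ranges overlapped (difference -0.02, interval -0.58 to 0.54, adjusted p = 0.963, with 18.5% of genes called). At 18 h only 1 library of each genotype had a region there, 5.14 in WT and 7.99 in KO, and no test was made.

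**Figure D1:**
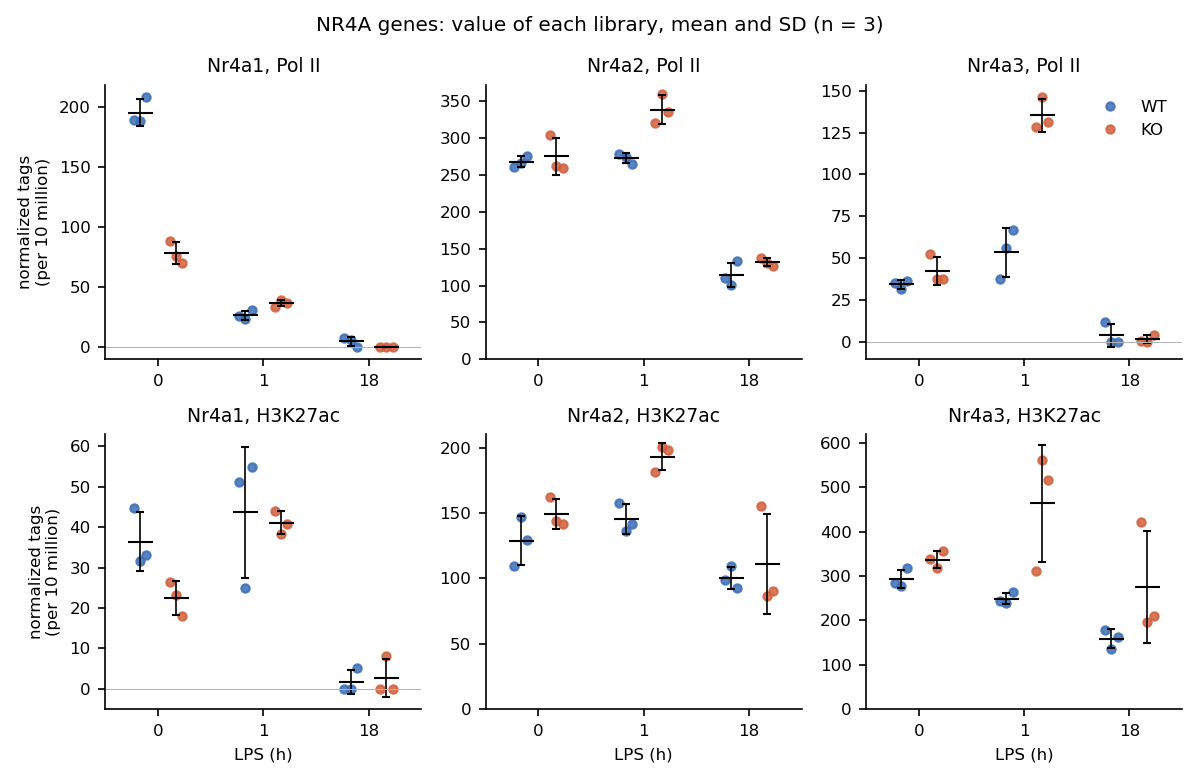
Normalized tags (y) at Nr4a1, Nr4a2 and Nr4a3 against hours of LPS (x), Pol II above and H3K27ac below. Points are libraries, bars the mean and SD of 3. WT Pol II at Nr4a1 falls from 188 to 208 tags at 0 h to 23 to 30.4 at 1 h, and KO Pol II at Nr4a3 stands at 128 to 146 at 1 h against 37.7 to 66.8 in WT.

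The place of the loss along Nr4a1 was read from the regions of each library. At 0 h Pol II regions between -0.881 and 10.3 kb covered 10.03, 10.1 and 10.8 kb in WT and 6.4, 4.58 and 4.6 kb in KO. They held 186.5, 186.4 and 189.9 normalized tags in WT and 107, 102 and 86.0 in KO. Per covered kb the densities overlapped, at 18.6, 18.5 and 17.6 in WT and 16.8, 22.4 and 18.7 in KO. Density was taken only over stretches that each library's search found, so a weaker signal also shows as lost cover. Less cover and a lower density therefore cannot be told apart here.

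The stretch from 2.22 to 5.58 kb, 3.36 kb long with exons 2, 3 and 4 of the 7, was defined as the gap between the KO regions at 0 h. Its lack of a Pol II region in KO at 0 h is thus set by that choice. All 3 WT libraries covered these exons at 0 h, and no WT library did at 1 h. Exon 7 was covered whole in no KO library at 0 h, and in WT libraries 1 and 3. Exon 1 was covered in all 12 Pol II libraries at 0 and 1 h, in both genotypes. Beyond the stretch Pol II was found again in all 3 KO libraries, and the last KO region, which began at 7.81, 7.47 and 8.19 kb, around the gene end at 7.95 kb, and ended at about 10 kb, had 20.7, 26.5 and 20.7 tags per kb. The 2 WT libraries with a separate last region had 20.9 and 22.5 tags per kb there. Whether the stretch has no Pol II region in KO because the DNA is missing or because Pol II is lower there cannot be told apart.

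**Figure D2:**
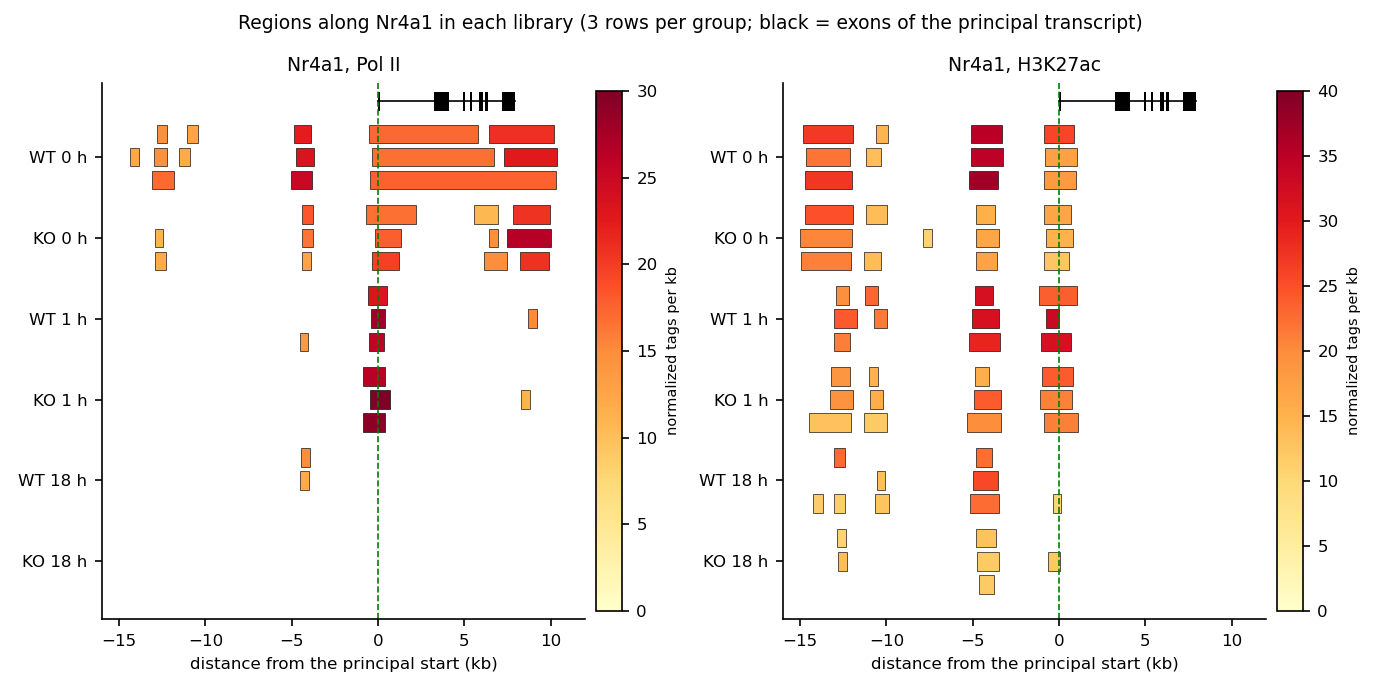
Regions found along Nr4a1 in each library (bars, 3 rows per group) against distance from the principal start in kb, coloured by normalized tags per kb, with Pol II left and H3K27ac right and exons in black. At 0 h the Pol II regions of KO leave out 2.22 to 5.58 kb, and the H3K27ac region around -4.4 kb is paler in KO than in WT at 0, 1 and 18 h.

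As a whole this merged Pol II region was 0.87 lower in KO at 0 h (adjusted p = 6.04e-05) and 0.38 higher at 1 h (adjusted p = 0.00997), the latter moving to 0.04 after centring and 0.09 after quantile normalization, neither past the test. A region was called only at an adjusted p under 0.05 with a log2 change over 1 in size, so neither was called. That rule called 2.27% of Pol II regions between KO and WT at 0 h, 8.59% at 1 h and 6.17% at 18 h. LPS for 1 h lowered the region by 2.44 in WT and by 1.19 in KO (adjusted p = 6.66e-12 and 6.54e-08), where 49.9% and 47.2% of Pol II regions were called. The difference between those responses was 1.25 (adjusted p = 8.07e-05), and 4.90% of regions were called for it.

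Upstream of Nr4a1 an H3K27ac region at chr15:101261540-101263576, from -5.31 to -3.27 kb, was found in all 18 libraries. At 0 h it held 61.1, 64.0 and 64.3 normalized tags in WT and 17.3, 23.0 and 20.5 in KO. The genotypes lay far apart, and H3K27ac there was 1.28 lower in KO (SE 0.272, adjusted p = 0.01), a call made for 1.85% of H3K27ac regions at 0 h. Without replicate 2 or without replicate 3 of every group the difference was -1.33 and -1.27 with an adjusted p of 0.199 and 0.203. The signal was also less dense, with 35.0, 34.7 and 37.3 tags per kb in WT and 15.2, 16.8 and 16.9 in KO.

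At 1 h the same region held 33.3, 49.2 and 51.0 in WT and 12.4, 37.3 and 39.0 in KO. In summed tags only KO library 1 lay well below WT, while per kb all 3 KO libraries (15.6, 24.0 and 19.9) lay below all WT libraries (31.9, 31.7 and 28.9). The difference in summed tags was -0.53 and not called (adjusted p = 0.135, with 14.1% of regions called). With the 3 libraries that stood apart left out, it was -1.27 (adjusted p = 0.00692) on the 1 KO 1 h library kept, the low one, and without that library instead it was -0.16 (adjusted p = 0.517). At 18 h WT had 20.3, 36.5 and 37.7 and KO 14.4, 15.0 and 10.3, which do not overlap. The 18 h difference was -0.81 (adjusted p = 0.0649, with 3.74% of regions called), and -0.85 (adjusted p = 0.0119) without those libraries.

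Pol II was found at the same place, at chr15:101261829-101263160. At 0 h it held 21.6, 25.7 and 29.5 normalized tags in WT and 11.5, 10.4 and 6.33 in KO, without overlap, and was 0.88 lower in KO (adjusted p = 0.018), short of the fold needed for a call. At 1 h 1 WT library had a region there (6.86), at 18 h 2 WT libraries had one, and no KO library did at either time. Around -12.4 kb, by the start of the gene record, Pol II was 9.27, 11.3 and 21.5 in WT at 0 h and 0, 5.54 and 7.71 in KO (difference -0.74, adjusted p = 0.02), and no library had a region there after LPS. A further Pol II region, from -11.5 to -10.4 kb, was found in 2 WT libraries at 0 h and in no other library (difference -0.56, adjusted p = 0.0378).

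Other regions around Nr4a1 did not pass the test between genotypes at 0 h. H3K27ac from -15.0 to -11.7 kb held 78.1, 56.4 and 74.4 in WT at 0 h and 69.4, 61.4 and 61.3 in KO (difference -0.10, adjusted p = 0.964). It fell with LPS in both genotypes, by 1.35 at 1 h and 2.12 at 18 h in WT and by 1.05 and 2.43 in KO (adjusted p from 7.22e-06 to 0.0117). Further out, Pol II from -21.6 to -18.2 kb was found in all 18 libraries, with 56.1, 77.8 and 62.7 in WT at 0 h and 61.0, 68.2 and 60.5 in KO. Pol II across the neighbour Atg101 differed by 0.06 at 0 h (adjusted p = 0.831). At 1 h both were higher in KO, by 0.63 (adjusted p = 0.000502) from -21.6 kb and by 0.57 (adjusted p = 0.00263) at Atg101, where the median Pol II region was 0.31 higher, and at 18 h Atg101 was at -0.48 (adjusted p = 0.0146). The response of the region from -21.6 kb to 1 h of LPS also differed between genotypes, by 0.66 (adjusted p = 0.014). These values lay below the fold for a call. The Pol II region from -11.5 to -10.4 kb and H3K27ac from -11.3 to -9.86 kb overlapped no input region, and every other region described here, at all 3 genes, overlapped a region of at least 1 input library.

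**Figure D3:**
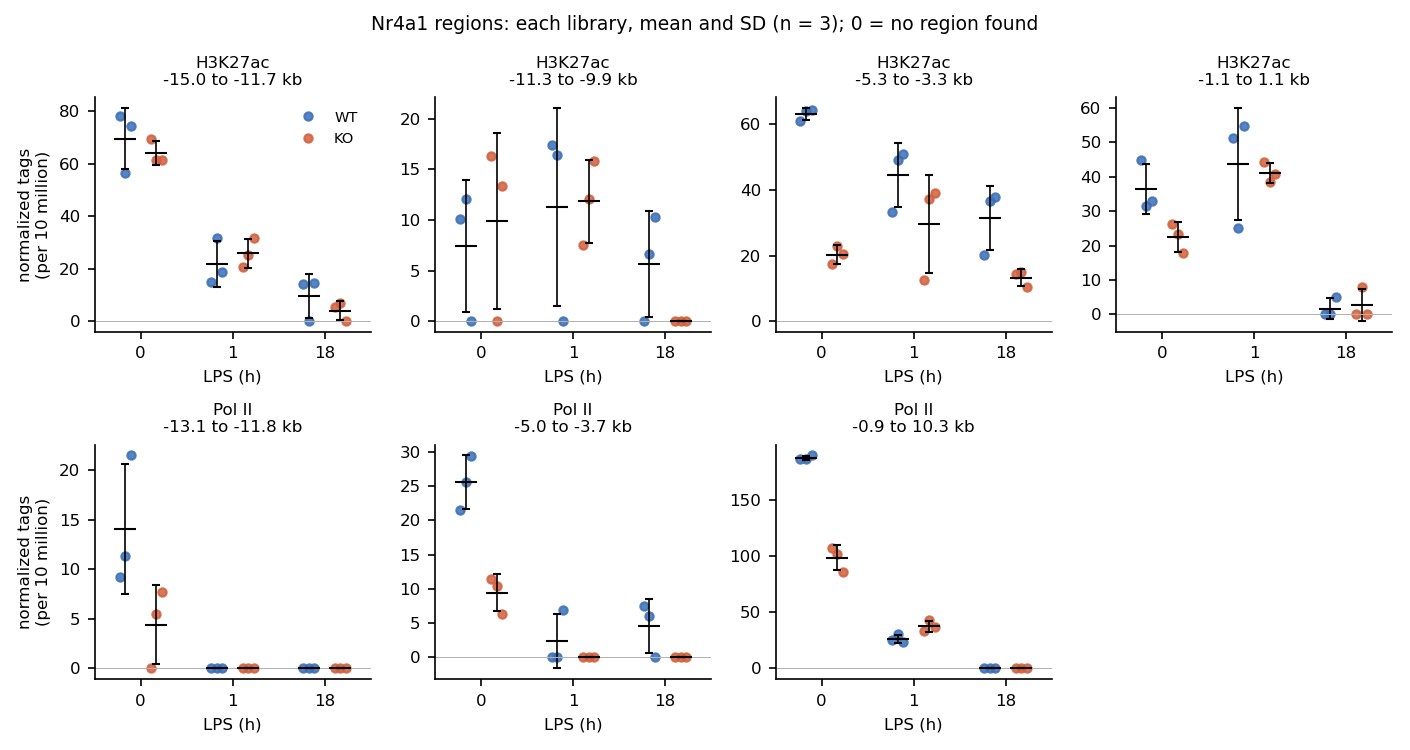
Normalized tags (y) of the regions from -15 to 10.3 kb at Nr4a1 against hours of LPS (x), 1 panel per region; points are libraries, bars the mean and SD of 3, and 0 means no region found. In the panel from -5.3 to -3.3 kb, WT libraries at 0 h sit at 61.1 to 64.3 and KO libraries at 17.3 to 23.0.

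Nr4a3 had more Pol II in KO than in WT after 1 h of LPS, and the size depended on the stretch measured. It was 1.75-fold (0.81) over the whole merged region described below and 2.33-fold (1.22) in the gene window, which takes a share of that region by length. At 0 h its Pol II values in the gene window were 35.2, 31.6 and 36.4 normalized tags in WT and 52.3, 37.6 and 37.3 in KO. KO lay just above WT, and the difference of 0.23 was within its error (95% interval -0.30 to 0.76, adjusted p = 0.693). After 1 h of LPS WT had 37.7, 56.0 and 66.8 and KO 128, 146 and 131. No KO library came near WT, and the window value was 1.22 higher in KO (SE 0.251, interval 0.69 to 1.75, adjusted p = 0.000994), against the all-gene shift of 0.24. In KO 1 region without a break ran across the window's edge in each library, whereas WT library 1 had a separate piece of 71.0 tags upstream of the window that adds nothing to it. The window difference stayed called relative to that shift, at 0.97 after centring and 0.85 after quantile normalization (adjusted p = 0.0081 and 0.0123), and was not called with a pseudocount of 1 (1.36, adjusted p = 0.153). At 18 h the values were 11.8, 0 and 0 in WT and 0.84, 0 and 4.16 in KO (difference -0.17, adjusted p = 0.676).

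At 0 h the Pol II regions of Nr4a3 lay mostly upstream of its start, in a merged region at chr4:48040631-48049194. At 0 h it ran from between -4.52 and -3.42 kb to at most 0.4 kb past the start, with 200.4, 223 and 199 normalized tags in WT and 239.9, 219.8 and 224 in KO. At 1 h WT had 109, 129.8 and 132 and KO 231, 221 and 218, so as deposited KO overlapped its own 0 h range and WT lay below its own. KO was 0.81 higher (adjusted p = 2.01e-06, below the fold for a call), with 0.46 after centring and after quantile normalization (adjusted p = 0.00105 and 0.00119). The densities were 23.4, 22.7 and 26.1 tags per kb in WT and 35.7, 30.8 and 32.1 in KO, and the covered length was longer in KO too. In all 6 libraries at 1 h the regions reached 2.79 to 4.04 kb past the start, and in KO they did so unbroken.

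At 18 h the Pol II regions of Nr4a3 ended before the start, between -0.79 and -0.17 kb. They held 99.2, 86.6 and 96.5 in WT and 126, 125 and 143 in KO, without overlap (difference 0.44, adjusted p = 0.000991, below the fold for a call). This is why the gene value at 18 h, which begins 500 bp before the start, was near 0 while the upstream region was not. The response of the region to 1 h of LPS differed between genotypes by 0.68 (adjusted p = 0.00109, below the fold for a call), with -0.71 in WT and -0.03 in KO as deposited. Relative to the median gene the changes were 0.14 in WT and 0.53 in KO after centring, 0.04 and 0.43 after quantile normalization, so the sign in each genotype depends on the scaling, and the difference between them no longer passed the test (0.39 and 0.40, adjusted p = 0.0548 and 0.0631).

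H3K27ac at the Nr4a3 start was the strongest of the family. At 0 h it was 284, 279 and 317 normalized tags in WT and 338, 318 and 356 in KO, without overlap (difference 0.20, adjusted p = 0.881). At 1 h WT had 244, 239 and 263 and KO 312, 562 and 517. KO was 0.83 higher (SE 0.232, adjusted p = 0.0257), but KO libraries 2 and 3, which stood apart, were the high ones. With the libraries that stood apart left out the difference was 0.32 (adjusted p = 0.143), and without replicate 2 or 3 of every group it was 0.65 and 0.77 (adjusted p = 0.467 and 0.368). Without replicate 1 of every group it was 1.07 (adjusted p = 1.8e-05), and without KO 1 h library 1 alone 1.09 (adjusted p = 0.00111). At 18 h WT had 179, 136 and 162 and KO 421, 197 and 210.1, with library 1, which stood apart, the high one (difference 0.68, adjusted p = 0.116, with 3.28% of genes called, and 0.35, adjusted p = 0.0282, without those libraries). The H3K27ac region lengthened as Pol II did, from at most 0.29 kb past the start at 0 h to between 3.5 and 3.93 kb at 1 h in both genotypes. At 18 h it ended by 0.02 kb in 5 libraries and at 2.22 kb in KO library 1.

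**Figure D4:**
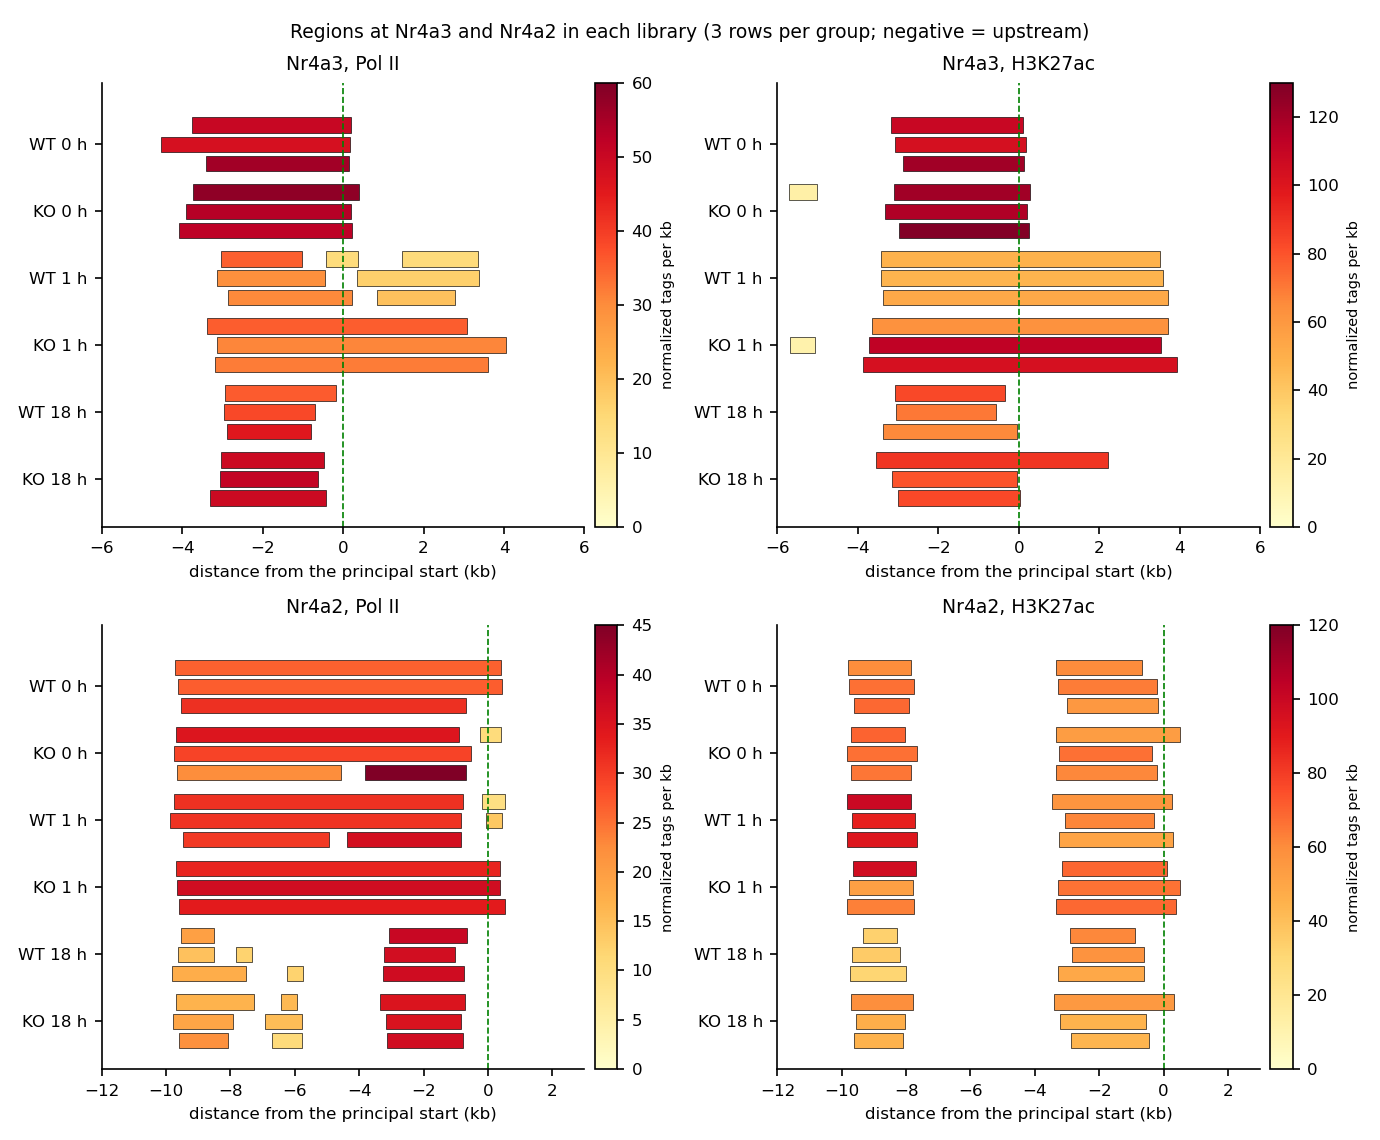
Regions at Nr4a3 (above) and Nr4a2 (below) in each library (bars, 3 rows per group) against distance from the principal start in kb, coloured by normalized tags per kb, Pol II left and H3K27ac right. At 1 h the regions of Nr4a3 extend to 2.79 to 4.04 kb for Pol II and 3.5 to 3.93 kb for H3K27ac.

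Nr4a2 carried the most Pol II of the family in its gene window, and its genotype difference depended on the window and the scaling. At 0 h it had 261, 266 and 276 normalized tags in WT and 304, 262 and 259.6 in KO, which overlap (difference 0.04, 95% interval -0.17 to 0.24, adjusted p = 0.896). At 1 h it had 279, 274 and 265 in WT and 321, 359.7 and 336 in KO, without overlap. The 1 h difference of 0.30 was called (SE 0.096, adjusted p = 0.0169), but it was close to the all-gene shift of 0.24 and shrank to 0.05 after centring and 0.08 after quantile normalization, where it was not called (adjusted p = 0.689 and 0.549). It also lost its call without replicate 2 (0.26, adjusted p = 0.14) and without replicate 3 (0.29, adjusted p = 0.0728). After 18 h Nr4a2 had 110.0, 100.2 and 133 in WT and 138, 130.3 and 127 in KO, which overlap. The 18 h difference of 0.20 was not called (adjusted p = 0.156), while the all-gene median was -0.10, and it was called at 0.33 after centring and 0.31 after quantile normalization (adjusted p = 0.0165 and 0.0316).

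Pol II at Nr4a2 lay between its starts, in a merged region from -9.88 to 0.532 kb. The window of the principal transcript alone, which takes the end of that region, held 6.72, 6.9 and 0 in WT at 1 h and 28.8, 32.4 and 34.7 in KO, without overlap (difference 1.57, adjusted p = 0.00223). It takes a share of each region by length. At 1 h the region was unbroken in each KO library and in pieces in each WT library, so this size follows where the regions break. Over the whole merged region the 1 h difference was 0.29 (adjusted p = 0.0153 by limma), below the fold for a call. The 0 h values in the principal window were 24.2, 25.4 and 0 in WT and 6.85, 0 and 0 in KO (-0.95, adjusted p = 0.135), so the direction differed between the times. At 18 h the region broke into pieces at both ends in all 6 libraries, and a weak piece between -6.93 and -5.76 kb (6.1 to 17.7 normalized tags) was found in all 3 KO libraries and 1 WT library. H3K27ac was found at both starts in all 18 libraries. At the principal start WT had 109.8, 147 and 129.8 at 0 h and KO 162, 144 and 141 (difference 0.20, adjusted p = 0.787). There WT had 158, 136 and 142 at 1 h and KO 181, 200.5 and 198 (0.39, adjusted p = 0.103), and WT 98.8, 109 and 92.9 at 18 h and KO 155, 86.8 and 90.6 (0.09, adjusted p = 0.817). At the start of the longer transcripts, from -9.83 to -7.65 kb, WT had 196.6, 172.2 and 198.3 at 1 h and KO 189.4, 104.2 and 130.4, which overlap, with the lower mean in KO. The direction was the other way at 18 h, when KO there had 115, 72.2 and 68.7 against 34.3, 52.1 and 54.3 in WT, without overlap. That difference was 0.73 (adjusted p = 0.0377), below the fold for a call, and 0.52 (adjusted p = 0.0254) without the libraries that stood apart.

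The inputs show how much signal arises without antibody. Within the Pol II window of Nr4a2, 5 of 6 inputs had regions, with 40.6 to 64.7 normalized tags, and the KO 18 h input had none. In the windows of Nr4a1 and Nr4a3 the inputs had 0 to 5.1 and 0 to 5.34. At 18 h the Pol II values of Nr4a1 reached 7.46 and those of Nr4a3 11.8, in 1 WT library each, and the other libraries of Nr4a3 were within the range of its inputs. In the H3K27ac windows the inputs had at most 8.38 normalized tags for any of the 3 genes.

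**Figure D5:**
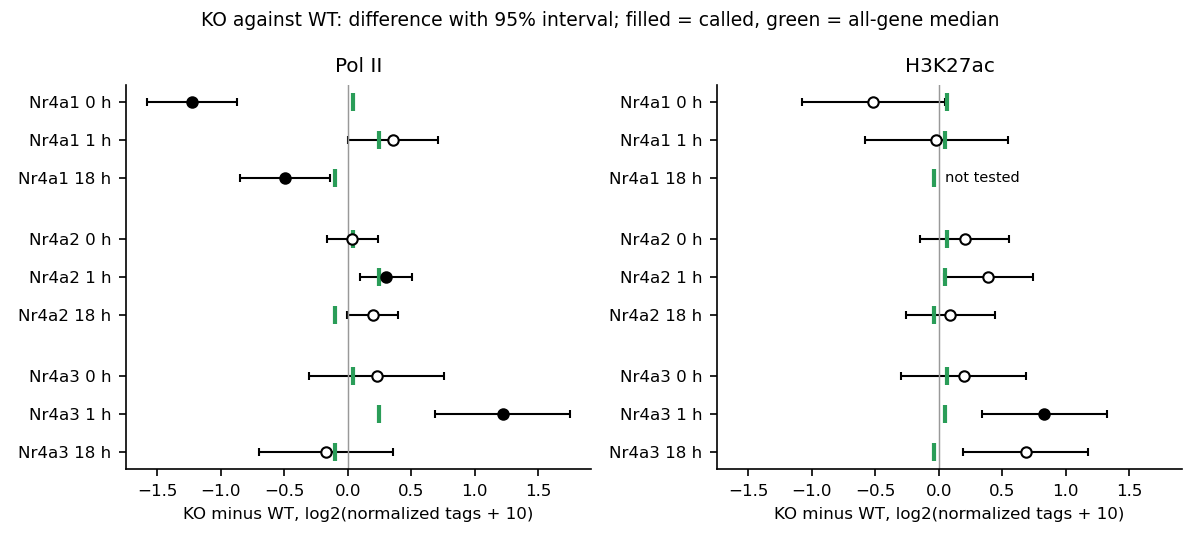
KO minus WT on the log2(normalized tags + 10) scale (x) for each gene and time, Pol II left and H3K27ac right. Points are limma estimates with 95% intervals, filled when called, and green ticks the all-gene median. Nr4a1 at 0 h (-1.22) and Nr4a3 at 1 h (1.22) stand farthest from the median for Pol II.

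The response to LPS was then compared between the members. Nr4a1 lost Pol II. In WT it fell by 2.50 at 1 h (SE 0.167, adjusted p = 2.00e-10) and was -3.86 at 18 h (adjusted p = 9.69e-13), with -1.71 and -3.94 after centring. In this comparison 86.9% of genes were called at 1 h and 66.6% at 18 h, and the median gene was at -0.82 at 1 h. In KO it fell by 0.92 at 1 h (adjusted p = 6.99e-05), which was -0.35 after centring and -0.04 after quantile normalization, neither called, and at 18 h the KO group was listed at 0, so that the fitted size (-3.13, adjusted p = 1.49e-11) is set by the pseudocount. Here 82.8% of genes were called at 1 h, with a median of -0.62, and 70.2% at 18 h.

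The regions of Nr4a3 reached further past the start at 1 h, into its gene window, while over the whole merged region the change was -0.03 in KO (adjusted p = 0.769) and -0.71 in WT (adjusted p = 1.02e-06, below the fold for a call). In KO the window value rose by 1.48 (SE 0.251, adjusted p = 3.38e-05). In WT it was 0.49, not called as deposited (adjusted p = 0.0762) but called without replicate 1 (0.70, adjusted p = 0.00479) or with a pseudocount of 50 (0.28, adjusted p = 0.0137), and it was 1.28 after centring and 1.70 after quantile normalization, both called (adjusted p = 0.000286 and 5.91e-06). By 18 h the window value had fallen by 1.77 in WT and by 2.17 in KO (adjusted p = 7.22e-06 and 5.45e-07). With 18 h values of at most 11.8 in WT and 4.16 in KO, these sizes are largely set by the pseudocount. Over the merged region the change was -1.06 in WT (adjusted p = 1.4e-08) and -0.75 in KO (adjusted p = 7.44e-07, short of the log2 change of 1 asked of regions). Nr4a2 was level in WT at 1 h as deposited (0.03, adjusted p = 0.803), which became 0.82 after centring and 0.60 after quantile normalization, both called. In KO it rose by 0.29 (adjusted p = 0.00966), a call lost without replicate 2 or 3 (0.22 and 0.26, adjusted p = 0.133 and 0.0556), by 0.86 after centring and by 0.67 after quantile normalization. By 18 h Nr4a2 had fallen by 1.17 in WT and by 1.01 in KO (adjusted p = 7.27e-09 and 4.46e-08). As deposited the total of each library is fixed, so a shift of most genes and a change of scale cannot be told apart.

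The test of the difference itself asked whether the LPS response depended on genotype. For Nr4a1 it was 1.58 at 1 h (SE 0.236, adjusted p = 0.000244) and 0.73 at 18 h (adjusted p = 0.0462), with 18.4% and 14.8% of genes called. The 1 h value was not called with a pseudocount of 1 (1.78, adjusted p = 0.113). These comparisons share the 0 h libraries with the genotype comparison at 0 h, where KO was lower. The 18 h value rests on a KO group listed at 0, changed sign with a pseudocount of 1 (-0.64) and lost its call without replicate 1, 2 or 3 (0.99, 0.83 and 0.37, adjusted p = 0.0806, 0.157 and 0.292) and with the block (adjusted p = 0.0603). For Nr4a3 it was 0.99 at 1 h (95% interval 0.24 to 1.74, adjusted p = 0.0614) and for Nr4a2 0.27 (interval -0.02 to 0.55, adjusted p = 0.18), and neither was called, although Nr4a3 was without replicate 1 (0.95, adjusted p = 0.0359). At 18 h it was -0.40 for Nr4a3 and 0.16 for Nr4a2 (adjusted p = 0.488 and 0.456), and 0.31 (adjusted p = 0.0969) for the merged region of Nr4a3, the other direction from its window.

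The response of H3K27ac at the starts was compared in the same way. At 18 h it had fallen at Nr4a1 by 2.00 in WT (adjusted p = 1.32e-05) and by 1.41 in KO (adjusted p = 0.000347). At Nr4a3 it had fallen by 0.85 in WT (adjusted p = 0.00619, and 0.0746 and 0.0949 without replicate 2 or 3) and was at -0.36 in KO (adjusted p = 0.202), or -0.70 (adjusted p = 4.38e-05) without the libraries that stood apart. At Nr4a2 it was at -0.33 in WT (adjusted p = 0.112) and had fallen by 0.44 in KO (adjusted p = 0.0346), a call lost after centring (-0.34, adjusted p = 0.0576) and without replicate 2 or 3 (-0.33 and -0.37, adjusted p = 0.288 and 0.275). None of the 3 genes was called by limma at 1 h in either genotype, with differences from -0.23 to 0.66 and an unadjusted p under 0.05 for Nr4a1 and Nr4a2 in KO. Nr4a1 in KO was called with a pseudocount of 50. Around the start of its gene record, in place of the principal start, the Nr4a1 mean went the other way at 1 h. It was 76.1 at 0 h and 32.1 at 1 h in WT, and 73.5 and 37.3 in KO. The share of genes called was 55.0% at 1 h and 49.8% at 18 h in WT, and 46.9% and 52.6% in KO. No genotype difference in the LPS response of H3K27ac was called for a member, nor was any unadjusted p under 0.05, where 0.593% of genes were called at 1 h and 0.507% at 18 h.

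Levels were set side by side per kb of the window. In WT at 0 h mean Pol II was 14.7 normalized tags per kb at Nr4a2, 9.07 at Nr4a1 and 0.81 at Nr4a3, and mean H3K27ac was 58.7 at Nr4a3, 25.8 at Nr4a2 and 7.29 at Nr4a1, so the order in these windows differed between the antibodies. The Pol II window of Nr4a3 is long and leaves out most of its upstream region. Per covered kb of the merged regions, Pol II in WT at 0 h was 47.7 to 55.7 at Nr4a3, 26.4 to 31.4 at Nr4a2 and 17.6 to 18.6 at Nr4a1, the order of H3K27ac. Across groups Pol II at Nr4a1 was in the order WT 0 h (mean 195 ± 11.3 normalized tags, SD, n = 3), KO 0 h (78.04 ± 8.96), KO 1 h (36.4 ± 2.76), WT 1 h (26.3 ± 3.74), WT 18 h (4.48 ± 3.95) and KO 18 h, and of these neighbours only WT and KO at 18 h touched, at 0. Nr4a2 was in the order KO 1 h (339 ± 19.7), KO 0 h (275 ± 25.2), WT 1 h (273 ± 7.0), WT 0 h (268 ± 7.44), KO 18 h (132 ± 5.58) and WT 18 h (114 ± 16.7), with overlap among KO 0 h, WT 1 h and WT 0 h and between the 18 h groups. Nr4a3 was in the order KO 1 h (135 ± 9.69), WT 1 h (53.5 ± 14.7), KO 0 h (42.4 ± 8.58), WT 0 h (34.4 ± 2.52), WT 18 h (3.95 ± 6.83) and KO 18 h (1.67 ± 2.2), with overlap from WT 1 h to KO 0 h and between the 18 h groups.

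Over the 18 Pol II libraries, in which the genes share each library's depth, genotype and LPS time, the log2 values of Nr4a2 and Nr4a3 had a Pearson correlation of 0.928, those of Nr4a1 and Nr4a2 0.743 and those of Nr4a1 and Nr4a3 0.621. Among 11711 to 11713 genes lying elsewhere in the genome, those most like Nr4a1 were Zmynd19 (0.979), Zfp111 (0.976) and Gpr176 (0.975). Those most like Nr4a2 were Wdr11 (0.985), Gtpbp4 (0.979) and Plaur (0.978), and those most like Nr4a3 were Dnajb4 (0.976), Fam129b (0.969) and Irs2 (0.968).

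The other nuclear receptors give the wider family. Of 46 such genes 27 were tested for Pol II at 0 h, and none was called between KO and WT by limma (6 at an unadjusted p under 0.05, median difference 0.11, all genes 0.04), beside 6.98% of all genes called. At 1 h 13 of 24 were higher and none lower in KO (median 0.37, all genes 0.24), near the 45.7% of all genes called, which was 8 higher and 3 lower after centring and 9 and 1 after quantile normalization. Those with the largest differences were Nr1d1 (1.18, adjusted p = 0.000166), the clock receptor REV-ERB alpha, Thrb, a thyroid hormone receptor listed at 0 in WT and at 11.9, 18.1 and 6.25 in KO (adjusted p = 6.32e-05), and the fatty acid receptors Ppard (0.95, adjusted p = 0.000611) and Pparg (0.80, adjusted p = 2.68e-05), which all stayed higher and called under both scalings. At 18 h 3 of 23 were higher and 1 lower, near the 21.0% of all genes called, among them Nr1i3 (2.03, adjusted p = 0.00271), the xenobiotic receptor CAR, Nr1d2 (0.41, adjusted p = 0.00932) and Pparg (-0.62, adjusted p = 0.000558), with 6 higher and 1 lower after centring. Pparg had 2481, 2783 and 2983 normalized tags in WT at 0 h and 20.3, 18.6 and 21.7 at 1 h (-6.51, adjusted p = 1.98e-18). LPS for 1 h left 4 of 27 higher and 22 lower in WT and 4 higher and 18 lower in KO, beside 86.9% and 82.8% of all genes called, but 8 and 11 in each genotype after centring. H3K27ac at their starts was called by limma in none of 22 between KO and WT at 0 h (5 at an unadjusted p under 0.05), in 4 of 18, all higher, at 1 h and in none of 18 at 18 h (2 unadjusted), beside 0.721%, 18.5% and 3.28% of all genes at 0, 1 and 18 h. At 1 h none of 19 was higher and 1 was lower without the libraries that stood apart, beside 8.31% of all genes called. Without KO 1 h library 1 instead, 7 of 18 were higher and 1 was lower, beside 45.8%.

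Genes that control or partner with the NR4A receptors form another list. Of 16, Mef2a (0.32, adjusted p = 0.027) and Hdac7 (0.31, adjusted p = 0.0329) had more Pol II in KO at 0 h, when 6.98% of all genes were called, though Mef2a was not called after quantile normalization (0.18, adjusted p = 0.0615). MEF2 factors activate Nr4a1 in T cells, where HDAC7 is their repressor. At 1 h 6 of 16 were higher and none lower in KO (median 0.28, all genes 0.24, 45.7% of all genes called), or 2 and 1 after centring. Mef2c, another MEF2 gene, had 224, 216 and 197 normalized tags in WT and 440.4, 582 and 519 in KO at 1 h (1.23, adjusted p = 1.18e-07). At 18 h the order was reversed, with 377, 393 and 392 in WT and 215, 188 and 163 in KO (-1.01, adjusted p = 1.79e-06). Both differences held their direction and call under both scalings. Srf (0.46, adjusted p = 0.0182) and Mef2d (0.42, adjusted p = 0.00317) were higher at 1 h as deposited and not called under either scaling. At 18 h, near the 21.0% of all genes called, 1 of 16 was higher, the NF-kB subunit gene Nfkb1 (0.74, adjusted p = 1.15e-05), and 2 were lower, Mef2c and the SRF partner Elk1 (-0.61, adjusted p = 0.00923). H3K27ac was called by limma in 0 of 15 at 0 h (2 at an unadjusted p under 0.05, with 0.721% of all genes called), in 4 at 1 h (2 higher and 2 lower, with 18.5% of all genes called) and in 2 at 18 h (both lower, with 3.28% of all genes), and at 1 h in none without the libraries that stood apart, or in 5 higher and 4 lower without KO 1 h library 1 instead.

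Other early LPS genes moved both ways. Of 20, 2 had more Pol II in KO at 0 h, beside 6.98% of all genes called, Egr2 (0.45, adjusted p = 0.00527) and Atf3 (0.31, adjusted p = 0.00108), and 1 had less, Nfkbia (-0.23, adjusted p = 0.0403). At 1 h 10 were higher and 5 lower in KO, where 45.7% of all genes were called, or 3 and 9 after centring, so the split depends on the scaling. Egr3, an early growth response gene, was at 14.8, 9.62 and 0 in WT and 69.2, 113 and 71.8 in KO at 1 h (2.45, adjusted p = 1.35e-06), and listed at 0 in WT and at 19.9, 34.6 and 19.7 in KO at 18 h (adjusted p = 7.54e-05). Egr1 was higher at 1 h (0.67, adjusted p = 0.000409), and Egr2 (-0.71, adjusted p = 1.88e-05) and Ier2 (-0.62, adjusted p = 0.00296) were lower. At 18 h, with 21.0% of all genes called, 3 were higher, among them Klf4 (0.66, adjusted p = 0.000289), and 5 lower, among them Klf2 (-0.54, adjusted p = 0.000383) and Fos (-0.47, adjusted p = 0.00677, and 0.0545 after centring). H3K27ac was called by limma in none of the 20 at 0 h (3 at an unadjusted p under 0.05, with 0.721% of all genes called), in 4, all higher, at 1 h, near the 18.5% of all genes, and in 1 higher and 2 lower at 18 h, beside 3.28%. Without the libraries that stood apart these counts were 3 higher at 0 h, 3 higher at 1 h and 2 higher and 4 lower at 18 h, where 9.77%, 8.31% and 18.6% of all genes were called. Without KO 1 h library 1 instead, 5 were higher and 3 lower at 1 h, beside 45.8% of all genes.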

How the data were processed

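Immunoprecipitated chromatin was sequenced from 36 libraries (Pol II and H3K27ac, 18 each) and 6 inputs. Reads were trimmed (Skewer), mapped to mm10 (HISAT2 2.1.0) and freed of duplicates by the authors, who searched each library alone with HOMER (histone style, 500 bp windows stitched, no input control). The deposited signal is the normalized tag number of each region, per 10000000 tags. A gene's signal was summed over the part of each region inside its window, by share of length, on the GENCODE vM21 gene records. Values were compared as log2(normalized tags + 10) by limma 3.58.1 in R 4.3.3 (6 group means over 18 libraries, trend, two-sided), in genes with signal in 2 or more of the 3 libraries of either group, with Benjamini-Hochberg adjustment over all genes or regions tested. The interaction subtracts the WT response to LPS from the KO response. Overlaps were found with bedtools 2.31.1, and the limma script was tested on simulated data.

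The members, gene lists and rules were chosen with earlier results of these data known. Named genes are the members, regions within 20 kb of them (values where at least 3 libraries had one), per list and comparison up to 4 called genes with the largest change and no overlap of libraries, drawn on where the text needs them, and the 3 genes most correlated with each member over 18 libraries (mean of at least 20, over 100 kb away). Regions found in fewer libraries are given where they bear on the loss at Nr4a1. Some genes that met the rule are not reported here. Alternatives were pseudocounts of 1 and 50, centring, quantile normalization, other windows and starts, a common detection floor, filters, a replicate block and each replicate left out. Leaving out the 3 H3K27ac libraries that stood apart, and KO 1 h library 1 for the gene lists, was chosen after seeing the data.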

Additional observations from a re-analysis of the deposited data

Results flagged for a closer look

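The Pol II response of Nr4a1 to LPS differed between genotypes by a test of the difference itself. The response of KO less the response of WT was 1.58 at 1 h (adjusted p = 0.000244 by limma) and 0.73 at 18 h (adjusted p = 0.0462), on the log2(normalized tags + 10) scale. The 18 h value rests on a KO group listed at 0 in all 3 libraries. It turned to -0.64 with a pseudocount of 1 and was not called with the replicate block (adjusted p = 0.0603) or without replicate 1, 2 or 3 of every group (adjusted p = 0.0806, 0.157 and 0.292). The 1 h value was not called with a pseudocount of 1 (1.78, adjusted p = 0.113). WT libraries went from 188 to 208 normalized tags at 0 h to 23 to 30.4 at 1 h, and KO libraries from 70.2 to 87.8 to 33.5 to 39.0.

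Input libraries, which were not used in the comparisons, had signal at Nr4a2. The highest was 64.7 normalized tags over the gene record, in the WT 18 h input, where the Pol II libraries of that group had 100.2 to 133. The KO 18 h input had none there.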

How the results depend on the processing

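Over the 53 comparisons of the members, 461 of 515 values under another setting kept their direction and their side of the threshold, 19 lost the call, 20 gained it and 15 changed direction, 2 of these while called. With a pseudocount of 1, Pol II calls were lost for Nr4a1 KO against WT at 0 h (-1.32), Nr4a3 KO against WT at 1 h (1.36), LPS 1 h in KO at Nr4a1 (-1.08) and Nr4a3 (1.67), and the Nr4a1 interaction at 1 h (1.78), while the one at 18 h changed sign (-0.64). With a pseudocount of 50, calls were gained for Nr4a1 Pol II in KO at 1 h (0.18), Nr4a3 Pol II with LPS 1 h in WT (0.28), its interaction (0.72) and Nr4a1 H3K27ac with LPS 1 h in KO (0.33), and lost for Nr4a1 Pol II at 18 h (-0.12). The principal transcript alone gave Nr4a2 Pol II differences of -0.95 in KO at 0 h and -0.70 with LPS 1 h in WT, and an interaction of 2.51 at 1 h. The value of that window follows where the regions break.

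As deposited 4589 genes had more and 904 less Pol II in KO at 1 h, which became 1902 and 2543 after centring. The splits were 967 and 1714, then 1941 and 1012, in KO at 18 h, 2446 and 9003, then 4885 and 5037, for LPS 1 h in WT, 2724 and 8210, then 4787 and 5067, in KO, 1897 and 563, then 892 and 1747, for the interaction at 1 h, and 657 and 1343, then 1319 and 770, at 18 h. For H3K27ac they were 1316 and 872, then 1082 and 1303, in KO at 1 h, 111 and 264, then 193 and 176, at 18 h, 52 and 33, then 36 and 51, at 0 h, 2203 and 4093, then 2825 and 3310, for LPS 18 h in KO, 18 and 54, then 23 and 33, for the interaction at 1 h, and 14 and 47, then 27 and 19, at 18 h. After centring and after quantile normalization, Pol II at Nr4a2 in KO was 0.054 and 0.085 at 1 h, 0.33 and 0.31 at 18 h, at Nr4a1 at 18 h -0.36 and -0.40, LPS 1 h in WT gave 0.82 and 0.60 at Nr4a2 and 1.28 and 1.70 at Nr4a3, and LPS 1 h in KO gave -0.35 and -0.040 at Nr4a1. The Nr4a2 Pol II region was -0.0078 and -0.0096 in KO at 0 h and -0.057 at 1 h after centring, and the Nr4a3 Pol II region moved with LPS 1 h by 0.14 and 0.037 in WT and 0.53 and 0.43 in KO. H3K27ac at Nr4a2 with LPS 18 h in KO was -0.34 and -0.26, and quantile normalization gave 0.062 for Nr4a3 Pol II in KO at 18 h and, with LPS 1 h in KO, H3K27ac of 0.80 at Nr4a1 and 0.37 at Nr4a2.

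Replicate numbers showed little pairing of the libraries: same-numbered libraries deviated together with correlations of -0.043 to 0.108 for Pol II (1 of 9 over 0.1, 6 of 9 highest with their own number) and -0.042 to 0.013 for H3K27ac (0 of 9). A weak pairing of the Pol II libraries was not excluded. With the replicate block the Nr4a1 Pol II difference at 18 h (-0.49, adjusted p = 0.0568) and the interaction at 18 h (0.73, adjusted p = 0.0603) were no longer called, and no other call of a member changed.

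For H3K27ac, the start of the gene record in place of the principal start gave 0.20 at Nr4a1 and -0.43 at Nr4a2 in KO at 1 h, -1.08 in WT and -0.83 in KO at Nr4a1 with LPS 1 h, 0.59 and -1.24 at Nr4a2 in WT with LPS 1 h and 18 h, and interactions of -0.49 at 1 h and 0.67 at 18 h at Nr4a2 and -0.72 at 18 h at Nr4a1. Without KO 1 h libraries 2 and 3 and KO 18 h library 1 (chosen after seeing the data), KO against WT was 0.064 at Nr4a1 and 0.32 at Nr4a3 at 1 h, -0.16 at Nr4a2 and 0.35 at Nr4a3 at 18 h, and 0.0053 at the longer start of Nr4a2 at 1 h. LPS changes were then called for Nr4a3 at 1 h in WT (-0.23), Nr4a2 at 18 h in WT (-0.33) and Nr4a3 at 18 h in KO (-0.70), and Nr4a3 at 1 h in KO was -0.11. A 1000 bp window gave 0.80 for Nr4a3 in KO at 1 h, -0.59 for Nr4a2 with LPS 18 h in KO and an Nr4a2 interaction of 0.30 at 18 h. A common floor gave 1.15 for Nr4a1 with LPS 1 h in KO. Of 207 values with a replicate left out, 166 kept their direction and side.

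Where leaving out a replicate changed a Pol II call or direction, the ranges were -0.053 to 0.095 (Nr4a2), 0.25 to 0.43 (Nr4a1) and 0.26 to 0.35 (Nr4a2) for KO against WT at 0 h, 1 h and 1 h, -0.0067 to 0.066 (Nr4a2) and 0.37 to 0.70 (Nr4a3) for LPS 1 h in WT, 0.22 to 0.40 (Nr4a2) in KO, and 0.95 to 1.06 (Nr4a3, 1 h), 0.37 to 0.99 (Nr4a1, 18 h) and -0.83 to 0.14 (Nr4a3, 18 h) for the interaction. The Pol II regions at Nr4a2 and from -21.6 kb at Nr4a1 ranged from -0.036 to 0.11 and from -0.11 to 0.029 at 0 h. For H3K27ac the ranges in KO against WT were -0.26 to 0.15 (Nr4a1), 0.32 to 0.49 (Nr4a2) and 0.65 to 1.09 (Nr4a3) at 1 h and -0.17 to 0.29 (Nr4a2) and 0.35 to 0.85 (Nr4a3) at 18 h. With LPS they were -0.044 to 0.37 (Nr4a1, 1 h), -0.42 to -0.27 (Nr4a2, 18 h) and -0.96 to -0.79 (Nr4a3, 18 h) in WT, 0.56 to 0.72 (Nr4a1), 0.30 to 0.45 (Nr4a2) and 0.21 to 0.66 (Nr4a3) at 1 h in KO, and -0.69 to -0.33 (Nr4a2) and -0.70 to -0.18 (Nr4a3) at 18 h. The interactions at 1 h were 0.0011 to 0.45 (Nr4a2) and 0.44 to 0.90 (Nr4a3). Counts over all genes moved as well. Without replicate 1, 2 and 3 the H3K27ac calls between KO and WT went from 85 to 314, 19 and 20 at 0 h, from 2188 to 6513, 32 and 28 at 1 h and from 375 to 1418, 53 and 49 at 18 h, and those of the interaction from 72 to 4860, 0 and 0 at 1 h and from 61 to 545, 6 and 1 at 18 h. LPS calls for H3K27ac fell to between 3497 and 4356 in WT and between 3055 and 4035 in KO without replicate 2 or 3. For Pol II, 918, 5493 and 2681 calls between KO and WT at 0, 1 and 18 h became as few as 489, 3044 and 1409, and 2460 and 2000 for the interaction as few as 656 and 1006. Without the libraries that stood apart the H3K27ac counts were 1152, 978 and 2108 between KO and WT at 0, 1 and 18 h and 443 and 1731 for the interaction. Without KO 1 h library 1 alone they were 219, 5386, 1087, 3659 and 340, and without KO 18 h library 1 alone 242 and 3909 at 0 and 1 h and 646 and 197 for the interaction. Requiring signal in every library left 35 at 0 h and 39 and 31 for the interaction, the replicate block 32 and 33 for the interaction, and the 1000 bp window 1286 at 1 h and 28 and 36 for the interaction. Quantile normalization gave 1509 Pol II calls at 0 h and 121 for the H3K27ac interaction at 1 h. The cause of these changes was not tested. With regions that overlap an input region left out, the Nr4a1 Pol II region from -11.5 to -10.4 kb (-0.56, adjusted p = 0.0224) is the one genotype difference past the test that keeps a value, and a filter on every library leaves no value for Nr4a1 and Nr4a3 at 18 h.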
